A study of Mus musculus with 2 samples.

Results

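The catecholamine genes of the adrenal gland were examined as a set of 10, chosen by name: the synthesis enzymes Th, Ddc, Dbh and Pnmt, the cofactor enzymes Gch1 and Qdpr, the granule proteins Slc18a1, Slc18a2 and Cyb561, and the plasma membrane transporter Slc6a2. All 10 had reads, among 16457 annotated genes with at least 1 read. They held 153 transcript models in replicate 1 and 153 in replicate 2, of 88716 and 85696 models in all. The libraries are long-read RNA-seq of adrenal gland, taken at 2 months of age from male B6CASTF1/J mice, a first-generation cross of B6 and CAST, with no treatment in the labels. They form a single group of 2, so the study holds no contrast between conditions. The labels conflict on whether 2 animals were used, so the spread between the libraries may be technical, and each test below compares these 2 libraries only.

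Chromaffin cells of the adrenal medulla make adrenaline and noradrenaline. Tyrosine hydroxylase (Th) turns tyrosine into DOPA, aromatic amino acid decarboxylase (Ddc) turns DOPA into dopamine, dopamine beta-hydroxylase (Dbh) turns dopamine into noradrenaline inside the granule, and Pnmt methylates noradrenaline to adrenaline in the cytosol. Th needs tetrahydrobiopterin, for which Gch1 catalyses the first and rate-limiting step and which Qdpr regenerates, while the vesicular monoamine transporters Slc18a1 and Slc18a2 load the granules and Cyb561 passes electrons into them to regenerate the ascorbate that Dbh uses. The noradrenaline transporter Slc6a2 takes released amine back up.

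Replicate 1 held 824225 gene reads and replicate 2 held 656826. Chromaffin markers were present, with all 7 of the list read and summed levels of 9212 and 10357 CPM (reads per 1e6 gene reads) in replicates 1 and 2. Cortex markers summed to 57389 and 60658 CPM. Markers of some other cell types differed between the libraries. Adipocyte markers summed to 18277 and 10228 CPM, with 5 of 8 called higher in replicate 1. A call needed an adjusted p under 0.05 and at least 2-fold, met by 3.41% of the genes tested. Red blood cell genes summed to 1930 and 804 CPM, with 4 of 4 called. Neuron-defining Chat, Slc5a7 and Prph had 0 reads in both libraries, and mast cell markers had 8 reads in each. Connective tissue genes summed to 835 and 534 CPM, with 2 of 6 called, and the neuron list to 175 and 95.9 CPM, with the neuropeptide gene Gal called. Glia markers summed to 43.7 and 33.5 CPM, while kidney markers had 6 reads in each library and liver markers 0 and 2. Reads of shorter transcripts were also relatively more frequent in replicate 1. The median log2 ratio of replicate 1 over replicate 2 was 0.62 in the shortest of 10 length bins, -0.21 at its lowest in the eighth and -0.14 in the longest. With that trend removed, 3 of the 8 adipocyte, 1 of the 4 red blood cell and 2 of the 6 connective tissue genes were called, and Gal was not (log2 ratio 0.42, adjusted p = 0.362), beside 131 of all 8063 genes. What part these differences take in the values below was not tested.

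The 10 genes together took 4.848 of every 1000 gene reads in replicate 1 and 4.845 in replicate 2, or 3996 and 3182 reads. The Wilson 95% interval was 4.68 to 5.02 in replicate 2, the shallower library. Th alone gave 65.7% and 66.6% of these reads. In a bulk sample, fewer cells of a type and less RNA per cell cannot be told apart, so these levels are per gland and not per chromaffin cell. Each read stands for 1 sequenced molecule, so the levels of genes are set side by side without a length correction, although long molecules may be captured less often.

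Th, on chromosome 7 from 142892752 to 142931128 on the minus strand (mm10), had 2625 reads in replicate 1 and 2119 in replicate 2. Its level came to 3185 and 3226 CPM, or 3205 ± 29.2 CPM (mean ± SD, n = 2 here and below), the highest of the set and rank 16 among all genes. Cyb561, on chromosome 11 from 105933702 to 105953336 on the minus strand, came next with 397 and 395 reads, 482 CPM in replicate 1 and 601 CPM in replicate 2. Its mean of 541.5 ± 84.6 CPM put it at rank 209. Pnmt (chromosome 11, 98386450 to 98388181, plus strand) had 331 and 197 reads, at 402 and 299.9 CPM in replicates 1 and 2. Dbh (chromosome 2, 27165233 to 27183200, plus strand) had 283 and 215 reads, at 343 and 327 CPM. Their means, 351 ± 71.9 CPM for Pnmt and 335 ± 11.3 CPM for Dbh, did not differ beyond their spread, and their order was reversed in replicate 2.

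Of the cofactor enzymes, Gch1 (chromosome 14, 47153895 to 47189413, minus strand) had 173 and 120 reads and Qdpr (chromosome 5, 45434021 to 45450236, minus strand) 115 and 78. Their levels were 209.9 CPM in replicate 1 and 182.7 CPM in replicate 2 for Gch1, and 139.5 CPM and 118.8 CPM for Qdpr. Gch1 exceeded Qdpr in both, by a factor of 1.504 in replicate 1 and 1.538 in replicate 2.

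The vesicular transporters were read far less. Slc18a2 (VMAT2; chromosome 19, 59260896 to 59296012, plus strand) had 39 and 25 reads, 42.7 ± 6.54 CPM. Slc18a1 (VMAT1; chromosome 8, 69037711 to 69089235, minus strand) had 22 and 21 reads, 29.3 ± 3.73 CPM. VMAT1 is known as the form of endocrine cells and VMAT2 as that of monoamine neurons, and both were read here. The ratio of Slc18a2 to Slc18a1 was 1.77 in replicate 1 and 1.19 in replicate 2, with Slc18a2 higher in both. In replicate 2 the margin was only 25 reads against 21, and the order was not tested.

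The lowest levels were those of Slc6a2 and Ddc. Slc6a2 (chromosome 8, 92960079 to 93001667, plus strand) gave 8 and 5 reads, 8.66 ± 1.48 CPM. Ddc (chromosome 11, 11814101 to 11898144, minus strand) gave 3 and 7 reads, 7.15 ± 4.96 CPM. The values of these genes overlapped between the libraries, so their order is not resolved. Ddc, whose enzyme acts directly after that of Th, stood at rank 9693, and there were 875 Th reads per Ddc read in replicate 1 and 303 in replicate 2. Neither low gene reached the 20 reads in sum needed for a test.

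**Figure D1:**
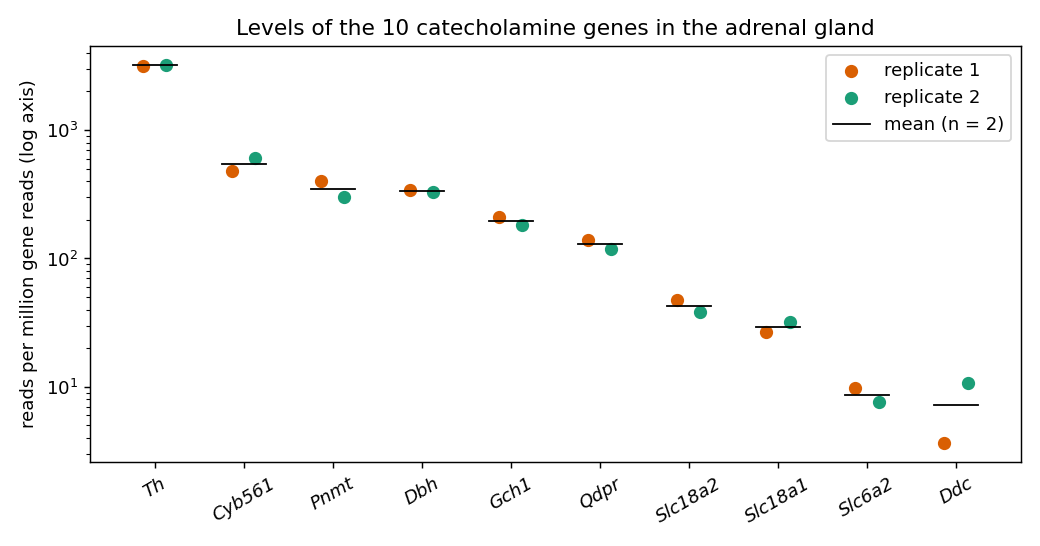
Level of each gene in CPM on a log axis, with replicate 1 left, replicate 2 right and the mean of both as a line. Th stands at 3205 CPM, 5 further genes lie between 129 and 541.5 CPM, and Ddc and Slc6a2 lie below 10 CPM apart from the Ddc value of 10.7 CPM in replicate 2.

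No member was called between the libraries. The call required a ratio of at least 2-fold and an exact binomial p below 0.05 after Benjamini-Hochberg adjustment, which 3.41% of the 8063 genes tested met. Of the 8 members tested, 0 were called and 2 had an unadjusted p under 0.05, Pnmt and Cyb561. The share of all genes with an unadjusted p under 0.05 was not counted, for this test or for the tests of shares below. Pnmt had the largest ratio, a log2 ratio of 0.52 with an exact binomial adjusted p of 0.00111, and was the 1 member to pass the adjusted p alone, which 11.1% of all genes did. With the trend of the ratio on transcript length removed, the log2 ratio of Pnmt was 0.24 and its adjusted p 0.3801. The other members tested had log2 ratios between -0.22 for Cyb561 and 0.41 for Slc18a2, beside a median of -0.01 over all genes tested. Cyb561 passed the adjusted p when scaled by the library total (0.0210) but not as reported (0.174), and Th passed it with DESeq2 size factors (0.0163) but not as reported (0.238), both staying under 2-fold. Relative to Th, Pnmt was read at 0.126 in replicate 1 and 0.0930 in replicate 2, and Dbh at 0.108 and 0.101.

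**Figure D2:**
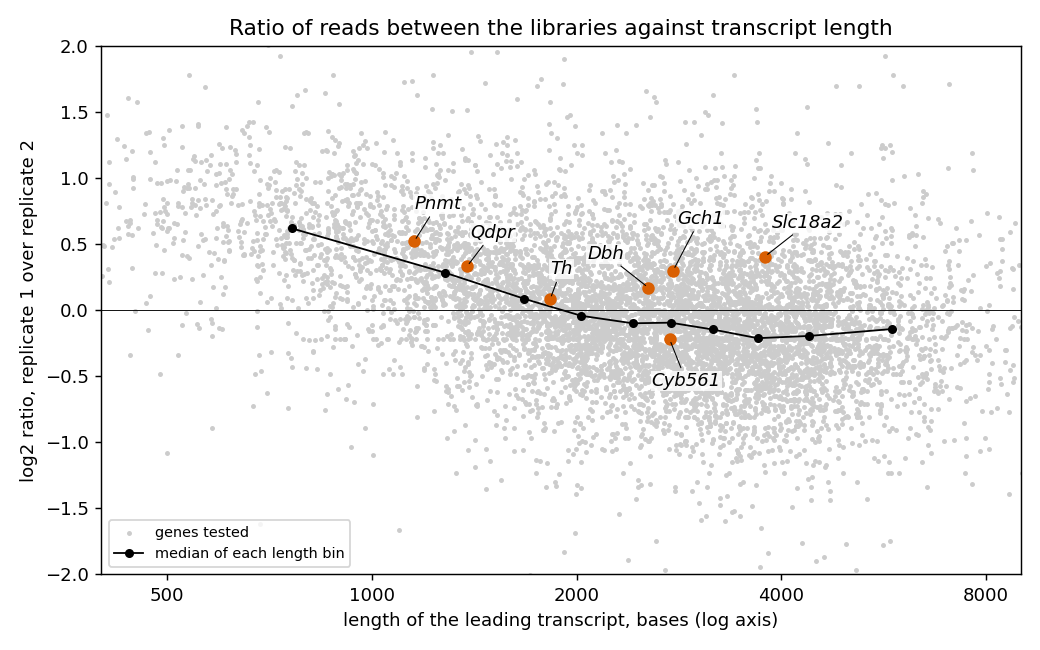
Log2 ratio of reads, replicate 1 over replicate 2, by the length of the gene's leading annotated transcript on a log axis, with grey points for genes tested, orange points for the 7 members that have such a transcript and black points for the median of each length bin. The medians run down to -0.21 in the eighth bin, with 0.62 in the shortest and -0.14 in the longest, and Pnmt at 0.52 is among the shorter transcripts. Genes beyond the axes are not drawn.

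The 10 genes have 48 annotated transcripts, of which 14 had reads. Th, Pnmt, Gch1 and Qdpr were each dominated by 1 annotated transcript, at 91.4 ± 1.54% of reads for Th-201, 92.4 ± 0.743% for Pnmt-201, 90.7 ± 0.940% for Gch1-201 and 88.6 ± 3.82% for Qdpr-201. Dbh-201 held 63.5 ± 2.90% and Slc18a2-201 59.6 ± 11.8%. At the other end, Cyb561-201 was the best-read annotated transcript of its gene at 14.1 ± 2.55%, below which only 162 of 5280 genes fell, and Slc18a1 had no read assigned to any of its 5 annotated transcripts. The median over those 5280 genes was 79.0%. By Fisher's exact test with Benjamini-Hochberg adjustment, 0 of the 7 members tested had a leading transcript whose share differed between the libraries, beside 0.341% of all genes; 1 of them, Th, had an unadjusted p under 0.05 (92.5% in replicate 1 and 90.3% in replicate 2, unadjusted Fisher's exact p = 0.00883, adjusted p = 0.432).

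Reads outside the annotated transcripts could still hold a whole coding region. For each gene, the reads were counted that hold the start codon, the stop codon and every coding splice of its leading coding transcript, whatever their untranslated ends. Cyb561 reached 84.6% of reads in replicate 1 and 84.3% in replicate 2 (336 of 397 and 333 of 395), although only 49 and 63 of its reads were Cyb561-201. Slc18a1 reached 63.6% and 71.4% (14 of 22 and 15 of 21 reads) with no annotated match, and Slc6a2 5 of 8 reads and 5 of 5 reads, of which 1 in each library was annotated. The median over 5158 genes, each read 20 times or more per library, was 83.3%. Dbh, at 61.5% and 65.6%, stood below that median.

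**Figure D3:**
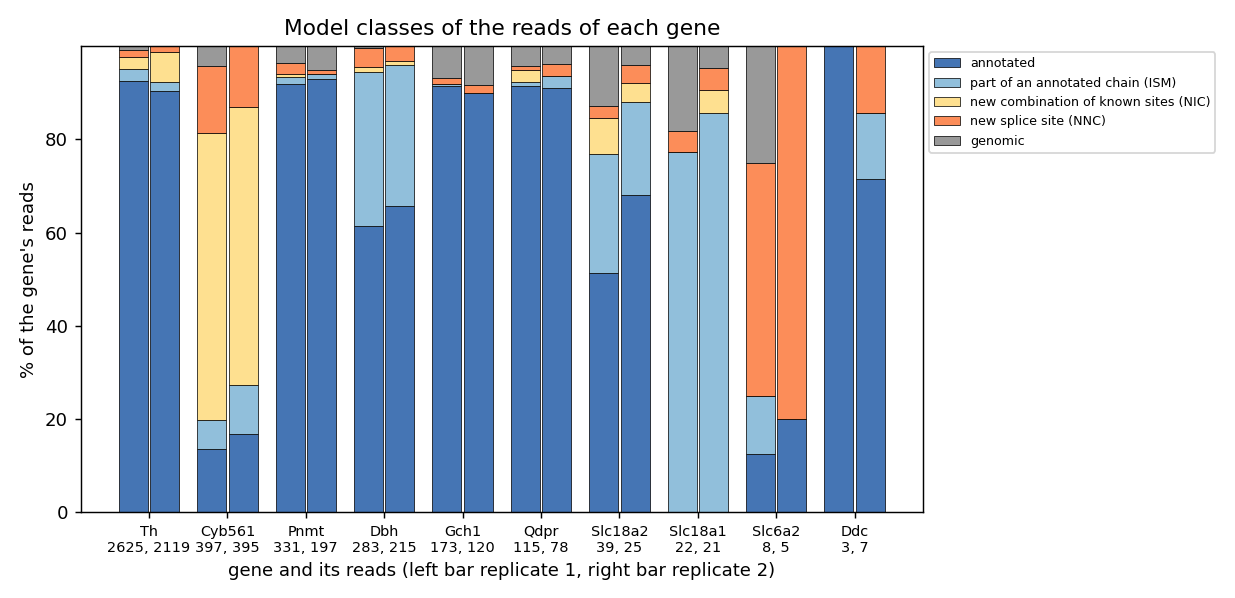
Share of each gene's reads in the classes of the authors' transcript models, with replicate 1 as the left bar and replicate 2 as the right bar, and the read numbers under each gene. Annotated reads make up most of Th, Pnmt, Gch1 and Qdpr, new combinations of known splice sites 61.5% and 59.5% of Cyb561, incomplete chains 77.3% and 85.7% of Slc18a1, and new splice sites 50% and 80% of the few Slc6a2 reads.

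Most spliced Cyb561 reads had a first splice donor with which no annotated transcript begins. This donor, at position 105940100 of chromosome 11, came first in 212 of 380 spliced reads in replicate 1 and 197 of 377 in replicate 2, 55.8% (Wilson interval 50.8 to 60.7%) and 52.3% (47.2 to 57.2%). In GENCODE M21 it ends the middle exon of Cyb561-207, of 65 bases (105940100 to 105940164), behind the distal first exon 105944111 to 105944412. A leading first exon that begins no annotated transcript was found for 66 of 4954 genes tested, 1.33%. The share of the leading first exon, 54.02 ± 2.50% for Cyb561, had a median of 94.1% over those genes. The leading Cyb561 model, a 6-exon chain from that donor, held 204 and 185 reads. Where single molecules end upstream of that donor is not resolved in these files, so a start there and a read cut short there cannot be told apart, nor can the shorter and longer forms of the exon described next.

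The annotated distal first exon opened 85 of 380 spliced reads in replicate 1 (22.4%) and 103 of 377 in replicate 2 (27.3%). In 52 and 66 of these it was joined directly to the common second exon (105937629 to 105937840), as in Cyb561-201. In 31 and 34 reads it was joined instead to a longer middle exon of 279 bases (105940100 to 105940378), while the 65-base middle exon of Cyb561-207 followed it in 1 and 2 reads. Reads from the distal exon that hold a middle exon numbered 33 and 37 in all and mostly carried this long form, which ends at the same donor. New first exons that end at a donor absent from the annotation were joined to the same second exon from position 105939930 (28 and 29 reads) and from position 105938538 (16 and 14 reads). New donors at 105938543, 105939237 and 105939886 had 3 reads each in replicate 1 and 0 in replicate 2. A donor at 105936781, past the common second exon, began 1 and 2 reads, and a chain that starts within the common second exon held 17 and 14. The farthest annotated first exon, 105953047 to 105953336 of Cyb561-202, had 0 reads in replicate 1 and 1 in replicate 2.

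Most of these routes lead into the start of the common second exon. The start codon of Cyb561-201 lies 13 bases into the common second exon, at 105937825 to 105937827. Where a route joins the start of that exon, the choice of first exon leaves the coding sequence from this start codon on unchanged. This does not cover reads from the donor at 105936781, past that exon, or the chain that starts within it. Further start codons in the new first exons were not checked. A choice that does alter the coding sequence was at exon 5. Of the reads that join exon 4 to either start of exon 5, 12 of 376 in replicate 1 (3.19%) and 14 of 374 in replicate 2 (3.74%) used a start 44 bases upstream. That number is no multiple of 3, and the annotated Cyb561-206, which has this exon, is given a stop codon at 105935777 to 105935779 inside exon 5 in place of the one at 105935375 to 105935377 in the last exon. Cyb561-206 itself had 2 and 2 reads, and the long exon also stood in a chain from the donor at 105940100 with 7 and 9 reads. The short, noncoding Cyb561-203 had 3 and 1 reads. The beginning of the long exon 5 is shown with the 44 added bases in capitals (mm10, chr11:105935880-105935953, minus strand).
Cyb561 exon 5: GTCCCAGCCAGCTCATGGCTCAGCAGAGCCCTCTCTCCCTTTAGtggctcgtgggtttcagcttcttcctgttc

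**Figure D4:**
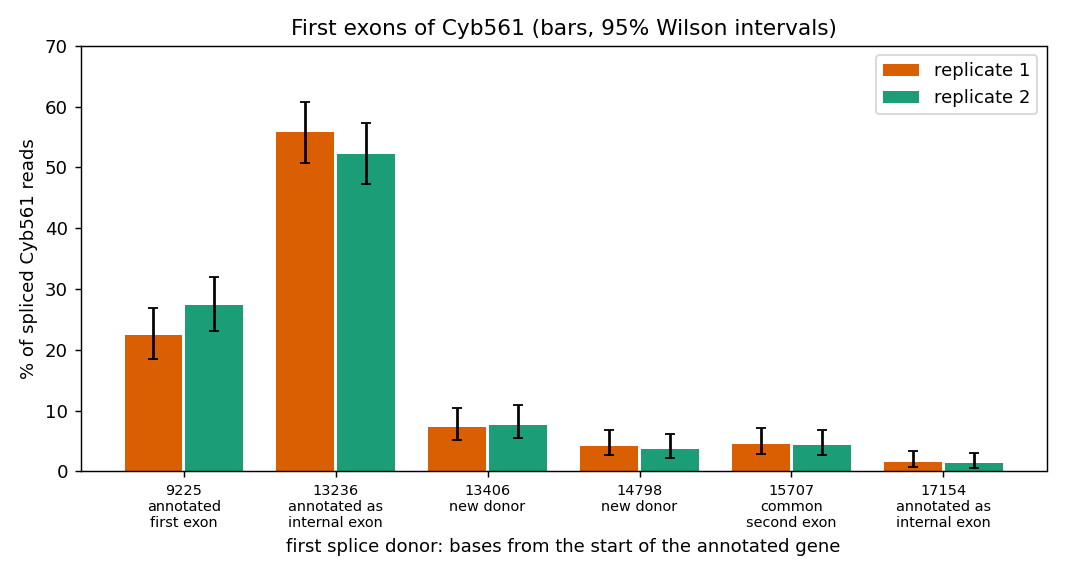
Share of spliced Cyb561 reads by first splice donor, for donors with at least 10 reads in sum, ordered by distance from the start of the annotated gene, with replicate 1 left, replicate 2 right and 95% Wilson intervals. The donor at 13236 bases leads with 55.8% and 52.3%, and the annotated distal first exon at 9225 bases follows with 22.4% and 27.3%.

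The leading first exon share was called different between the libraries for 0 of the 7 members tested, with Cyb561 at an adjusted p of 1 (Fisher's exact test), beside 0.121% of all genes called. Th, Qdpr and no other member had an unadjusted p under 0.05 (Fisher's exact p = 0.000985 and 0.0323), with adjusted p of 0.212 and 1.

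Ddc has a distal first exon, known from rat and human as the start used in liver and kidney, and a proximal one known there as the neuronal start. Both join the second exon, 11880442 to 11880650, which holds the start codon. Every Ddc read that reached a first exon used the proximal one, at chromosome 11 from 11890338 to 11890408. These were 3 of 3 spliced reads in replicate 1 and 6 of 7 in replicate 2, the remaining read being a 2-exon fragment of the 3' end. The distal exon, 11898012 to 11898144 in Ddc-210 and 11898008 to 11898044 in Ddc-201, had 0 reads. Both libraries together had 10 spliced reads, of which 1 reached no first exon. Here 0 reads allow a share somewhat above 30%, so a minor use of the distal start was not detectable at this depth. Ddc-202 held 2 of 3 and 5 of 7 reads. The remaining annotated read was 1 of the shorter, noncoding Ddc-208 in replicate 1, and 1 read of replicate 2 was a new 14-exon chain from the same first exon. RefSeq gives a promoter for both first exons, and the 200 bases before each start are shown because the reads bear on which is used (GRCm38.p6, minus strand, chr11:11890409-11890608 and chr11:11898145-11898344). Capitals mark a TATAAA on either strand, a motif found in 13.6% of all 32851 promoter windows of 300 bases in the table. The distal window held 1 match, on the reverse strand, and the proximal one 0.
Ddc proximal: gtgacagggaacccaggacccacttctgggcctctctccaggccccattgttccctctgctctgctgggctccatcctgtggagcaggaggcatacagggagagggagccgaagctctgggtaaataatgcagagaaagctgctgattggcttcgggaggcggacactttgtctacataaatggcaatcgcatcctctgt
Ddc distal: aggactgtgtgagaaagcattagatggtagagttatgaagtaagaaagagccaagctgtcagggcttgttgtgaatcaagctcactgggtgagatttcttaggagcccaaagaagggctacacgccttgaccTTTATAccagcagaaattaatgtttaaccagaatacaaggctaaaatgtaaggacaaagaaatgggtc

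Dbh was read as 1 main form with many molecules that lacked its 5' end. Dbh-201, of 12 exons, held 174 of 283 reads in replicate 1 (61.5%, Wilson interval 55.7 to 67.0%) and 141 of 215 in replicate 2 (65.6%, 59.0 to 71.6%), a difference of -4.10 percentage points (Fisher's exact test, p = 0.398, adjusted p = 1). Incomplete chains of known splices made up 32.9% and 30.2% of its reads, against 8.18% and 8.11% of all gene reads. The annotated first exon opened 68.5% and 71.0% of spliced Dbh reads, a share below which 578 of 4954 genes fell. Among the incomplete chains, those from exon 3 had 28 and 26 reads and those from exon 4 had 15 in replicate 1 and 4 in replicate 2, while the chain from exon 2 had 2 and 8. The chain from exon 10 to the last exon, with 20 reads in replicate 1 and 8 in replicate 2, was drawn in the replicate 1 model with a first exon that ran back across introns 7 to 9. Whether single molecules span those introns is not resolved. Dbh-202, a short noncoding transcript whose first exon ends at 27177232, before introns 7 to 9, had 0 reads.

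Alternative splices of Dbh were few. Exon 3, which spans 258 bases (27170312 to 27170569) and a whole number of codons, was skipped in 3 reads in replicate 1 and 1 in replicate 2, against 186 and 158 reads that include it. A donor at 27177842, beyond that of exon 8 at 27177752, was used in 5 and 3 reads, and one at 27177412, inside exon 7, in 3 reads of replicate 1 only. A new exon from 27180312 to 27180419 had 0 reads in replicate 1 and 4 in replicate 2, and a donor at 27181764 in place of 27181630 had 1 and 2. Exon 9 ended 3 bases early, at 27178244, in 3 reads of each library. Exon 9 is shown because this shift removes the length of 1 codon, with the bases left out in capitals (mm10, chr2:27178188-27178247, plus strand).
Dbh exon 9: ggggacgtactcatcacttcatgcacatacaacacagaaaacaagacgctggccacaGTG

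Th reads were uniform in their first splice donor. That of the first exon of Th-201 (142899872 to 142900014) came first in 2513 of 2600 spliced reads in replicate 1 (96.7%) and 2072 of 2110 in replicate 2 (98.2%). The distal first exon annotated for Th-202, 142930594 to 142931128, had 0 reads, which allows a share of up to 0.0637% of the 4710 spliced reads. New first exons upstream had their donors at 142901322 (4 and 2 reads), 142904917 (5 reads in replicate 1, 0 in replicate 2) and 142904423 (4 and 0). None of the 3 transcripts annotated as nonsense-mediated decay targets, Th-203 to Th-205, had reads. RefSeq's Th promoter is shown up to its start site, which lies in the first exon whose donor most reads share (GRCm38.p6, chr7:142899996-142900195, minus strand). Capitals mark TGACGTCA, the cAMP response element, known from work on the rat promoter, 45 to 38 bases before the start. TGACGTCA reads the same on both strands and was found in 1.79% of the 32851 promoter windows. Of the 7 windows for 6 member genes it was in those of Th and Slc18a2. The Slc18a2 sequence ends with the element, which spans the start site from -4 to 4 (chr19:59260682-59260881, plus strand).
Th promoter: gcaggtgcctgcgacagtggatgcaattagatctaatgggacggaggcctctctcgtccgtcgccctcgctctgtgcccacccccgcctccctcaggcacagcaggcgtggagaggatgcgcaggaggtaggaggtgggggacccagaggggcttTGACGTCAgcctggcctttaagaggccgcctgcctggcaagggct
Slc18a2 promoter: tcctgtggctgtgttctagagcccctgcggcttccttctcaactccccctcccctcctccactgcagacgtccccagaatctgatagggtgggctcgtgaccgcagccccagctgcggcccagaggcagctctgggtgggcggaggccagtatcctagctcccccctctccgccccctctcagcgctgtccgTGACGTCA

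The main variation of Th was in introns left in otherwise spliced molecules. At least 1 intron of Th-201 was kept in 80 of 2600 spliced reads in replicate 1 (3.08%, Wilson interval 2.48 to 3.81%) and in 140 of 2110 in replicate 2 (6.64%, 5.65 to 7.78%). These intervals cover counting error only, so their separation is no test of a difference. Over the 4909 genes with 20 or more spliced reads per library the pooled share was also lower in replicate 1, at 2.07% of spliced reads against 3.51% in replicate 2, and the median gene had 0.863%. The mean of Th, 4.86%, was reached by 948 of those genes, Th among them. The difference between the libraries was not tested for Th, since it was noticed in these data.

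Retention in Th was limited in the main to introns 5, 6 and 8. Intron 5, of 331 bases, was kept in 55 reads (2.15%) in replicate 1 and 111 (5.31%) in replicate 2, intron 6, of 360 bases, in 49 (1.91%) and 81 (3.88%), and intron 8, of 158 bases, in 48 (1.86%) and 79 (3.77%). Intron 2 followed with 10 and 33 reads, while introns 1 and 10 were kept in 0 reads. The kept introns often came together: 12 reads in replicate 1 and 33 in replicate 2 kept exactly introns 5 and 6, and 15 and 18 kept exactly introns 5, 6 and 8. Intron 8 alone was kept in 8 and 18 reads, intron 5 alone in 6 and 10, introns 5 and 8 in 3 and 9, introns 2, 5 and 6 in 1 and 8, and introns 2 and 5 in 0 and 4. Introns 5 to 8 were kept in 5 and 5, introns 2, 5, 6 and 8 in 4 and 4, introns 5, 6, 8 and 9 in 4 and 3, and intron 6 alone in 3 and 0. Reads that kept 1 intron alone numbered 26 and 31, and those that kept 2 numbered 19 and 54. Intron 7, of 70 bases and lying between introns 6 and 8, was kept in only 6 and 15 reads. Each of these reads had been spliced at other introns. Where a kept intron lies in the first or last exon of a chain, it rests on the single start or end drawn for that chain.

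**Figure D5:**
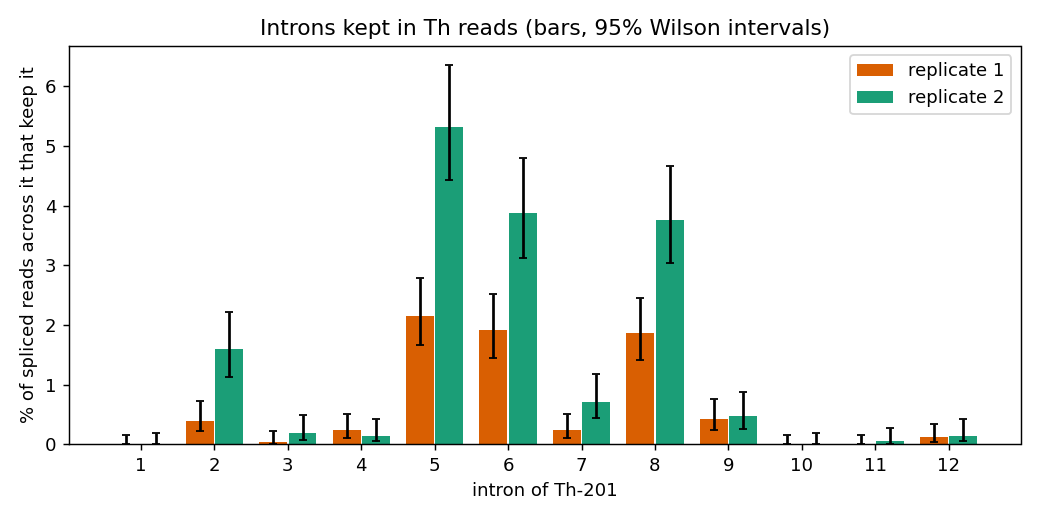
Share of spliced Th reads that keep each intron of Th-201, among those that keep or remove it, with replicate 1 left, replicate 2 right and 95% Wilson intervals. Introns 5, 6 and 8 stand out at 1.86 to 2.15% in replicate 1 and 3.77 to 5.31% in replicate 2.

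New splice sites in Th were rare. The most read were a donor at 142898010 in place of that of exon 2 at 142897966, with 5 and 6 reads over all its acceptors, and an acceptor at 142895156 in place of that of exon 9 at 142895158, with 3 and 5. An acceptor at 142895664 in place of 142895668 had 3 reads in each library. The last exon began at 142893484 in 4 and 1 reads and at 142893224 in 3 and 1, in place of 142893190. Exon 2 was skipped in 0 reads in replicate 1 and 4 in replicate 2, as was exon 6. Of incomplete chains, the one from exon 2 was read most, with 13 and 12 reads. Of 104 spliced Th chains, 63 had a single read, and 27 were seen in both libraries.

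Slc18a1 reads did not reach the farthest annotated first exon. Of 18 spliced reads in replicate 1 and 20 in replicate 2, 15 and 14 had the donor of the annotated exon 2 (69077189 to 69077263) as their first, and the annotated exon 1 (69088981 to 69089222) had 0 reads. The donor of exon 2 also begins an annotated transcript. A start there and a read cut short there cannot be told apart. Over the 38 spliced reads of both libraries, 3 reads would be a share of 7.89%. Only reads that reach exon 2 could show exon 1, so 0 reads allow a share above that. Reads cut short at exon 2 would set no limit. The coding region starts in exon 3, so the leading 16-exon chain, with 14 reads in each library, holds all of it. Atp6v1b2, a proton pump subunit gene on the opposite strand that overlaps exon 1, had 196 and 159 reads in its annotated form. How strand was set is not known from the labels or notes.

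Slc6a2 was read mostly with a splice that the annotation lacks. Of 6 spliced reads in replicate 1 and 5 in replicate 2, 4 and 4 had an intron from 92960760 to an acceptor at 92961197 (3 and 3 reads) or 92961194 (1 and 1). The annotated transcripts instead start at 92960933 without that intron (Slc6a2-201, 1 and 1 reads) or splice from 92960181 to 92961216 (Slc6a2-202, 0 and 0 reads). The start codon lies downstream of all these sites.

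Slc18a2 had 1 annotated form with reads, Slc18a2-201, with 20 of 39 reads in replicate 1 and 17 of 25 in replicate 2. Shares of 51.3% and 68.0% were not called different (Fisher's exact test, p = 0.207, adjusted p = 0.997). Exon 8, of 44 bases, was skipped in 3 of 30 reads in replicate 1 (10%) and 2 of 22 in replicate 2 (9.09%), most of them in a 15-exon chain with 3 and 1 reads. Its length is no multiple of 3. The skipped exon is shown whole in capitals (mm10, chr19:59274494-59274537, plus strand).
Slc18a2 exon 8: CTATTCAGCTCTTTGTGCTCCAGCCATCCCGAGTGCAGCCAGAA

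Pnmt, Gch1 and Qdpr had simple structures. Pnmt has 3 exons, and its first splice donor was shared by 311 of 319 spliced reads in replicate 1 and 185 of 187 in replicate 2. A new first exon with its donor at 98386277, before the annotated gene start at 98386450, had 3 reads in replicate 1 and 0 in replicate 2, and an acceptor at 98387657 in place of that of exon 3 at 98387653 had 2 and 1. Gch1 showed no kept intron in 161 and 110 spliced reads, and 1 chain held nearly all of them. Single-exon reads, not counted there, numbered 12 and 10 for Gch1, 12 and 10 for Pnmt and 5 and 3 for Qdpr. Qdpr-203, which has another first exon, and the retained-intron transcript Qdpr-210 had 0 reads in replicate 1 and 2 reads each in replicate 2.

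Genes that remove catecholamines or supply the pathway were counted by list, beside the 3.41% of all genes called, a share at which lists of this size may well hold no call. In the list of 12 breakdown and sulfation genes, 11 had reads and 0 of the 10 tested were called. Aldh2 led at 818 ± 2.91 CPM, ahead of Akr1a1 (625 ± 5.37 CPM) and Akr1b3 (192.6 ± 27.0 CPM). With the length trend removed, 1 of the 10, Aldh2, passed the adjusted p alone (log2 ratio 0.32, exact binomial test, adjusted p = 0.00370). The share of all genes that did so with the trend removed was not counted. The monoamine oxidase genes stood lower, Maoa at 48.6 ± 17.3 CPM and Maob at 30.8 ± 2.71 CPM. The median log2 ratio of those tested was 0.27 (0.28 with the length trend removed), beside -0.01 over all genes. All 7 tetrahydrobiopterin genes beside the members had reads, led by Pts (68.1 ± 10.1 CPM) and Spr (64.0 ± 2.19 CPM), which act after Gch1, and 0 of 5 tested were called, with a median log2 ratio of 0.64 that was 0.12 with the length trend removed. The tryptophan hydroxylase genes Tph1 and Tph2 had 0 reads.

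The list of copper and ascorbate genes included the copper chaperone Atox1 (198.7 ± 65.6 CPM) and the copper importer Slc31a1 (125 ± 25.9 CPM). It also held the peptide amidating enzyme Pam (274 ± 70.6 CPM), which is not a supplier. None of the 4 tested was called (median log2 ratio 0.65, or 0.45 with the length trend removed). The adjusted p alone, which 11.1% of all genes passed, was passed by 2, Atox1 at a log2 ratio of 0.78 and Pam at -0.43 (exact binomial test, adjusted p = 0.000150 and 0.0316). With the length trend removed neither passed (0.17 and -0.22, exact binomial test, adjusted p = 0.789 and 0.540), while Slc31a1 did (0.73, adjusted p = 0.0137). The share of 11.1% is for the test without that removal. Of the cytochrome b561 family, Cyb561a3 reached 47.0 ± 4.64 CPM and Cyb561d2 23.9 ± 2.86 CPM, and Cybrd1 had 0 reads, while Cyb561 itself was read most of the 5 family genes listed. Of the 2 others tested 0 were called, with a median log2 ratio of -0.12 (-0.19 with the trend removed). Of 12 other amine and tyrosine carriers 8 had reads and 0 of 7 tested were called, with a median log2 ratio of -0.09 that was 0.0037 with the trend removed. Slc3a2, a subunit of amino acid exchangers, led at 290.3 ± 41.6 CPM, followed by the low-affinity amine transporter Slc29a4 (51.7 ± 4.44 CPM) and the amino acid exchanger Slc7a5 (51.2 ± 24.4 CPM). The serotonin transporter Slc6a4, at 44.2 ± 4.204 CPM, was read more than Slc6a2 in both libraries, with 34 and 31 reads against 8 and 5. The dopamine transporter Slc6a3 and the acetylcholine carrier Slc18a3 had 0 reads.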

How the data were processed

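For each library the authors deposited a table of raw counts, the whole number of reads assigned to each transcript model, together with the exons of those models. Per the deposited notes, reads were placed on mouse build mm10 and GENCODE M21. TALON is named in the source field of the deposited annotation. The labels and notes used here do not give the aligner, the sequencing platform, software versions or the strand setting.

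Reads were summed per gene over every class, without spike-in reads, and expressed as CPM of gene reads. New spliced models were matched between libraries by intron chain, because the 2 libraries were processed separately. TALON gives 1 start and 1 end to each chain, so 5' and 3' ends of single reads are not resolved. A first exon was identified by its splice donor among spliced reads, and a kept intron as one lying whole inside an exon of a spliced model.

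The labels give 1 group of 2 libraries, numbered replicate 1 and replicate 2. With 1 group the quasi-likelihood test of edgeR could not be fitted. Reads per gene were compared by a two-sided exact binomial test on TMM-scaled sizes (edgeR 4.0.16, R 4.3.3) for genes with at least 20 reads in sum. For shares, Fisher's exact test (two-sided) was run where both libraries had 20 reads or more of the gene. All p-values were adjusted by Benjamini-Hochberg over every gene tested. Log2 ratios are replicate 1 over replicate 2 with 1 CPM added. Per-library shares carry Wilson 95% intervals, which cover counting error only. Where 0 reads were found, the limit is taken as 3 reads, equal to 3.64 CPM (replicate 1) or 4.57 CPM (replicate 2). Tested on simulated data, the test of reads per gene recovered 170 of 200 genes changed 4-fold, with 4 other calls among 7812 genes. The test of shares recovered 149 of 200 genes shifted by 40 percentage points, with 3 other calls among 5334 genes. Both simulations drew counting error only, without the length trend or other spread between the libraries. In the data the chi-square of reads per gene was 4.01 per degree of freedom over 9977 genes. The numbers of other calls in the simulations therefore do not carry over to these libraries.

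Alternatives changed the scaling (total, DESeq2 1.42.0 size factors), the read minimum, the classes counted, the length trend and the threshold, or left out a library. The 10 genes and the gene lists were chosen with earlier results of these data known. All 10 members are named, as are forms that are annotated and have reads, hold at least 5% of a gene's reads in either library or, if new and spliced, have at least 3 reads in sum, with kept-intron forms of Th given by the introns kept and others by the splice they differ in. Exceptions are single-exon models and some incomplete chains of the less read genes, which are not named even where they hold 5% or more. Of each pathway list the 2 or 3 genes with the highest mean are named. Maoa, Maob and Slc6a4 were added after their values were seen. Promoter sequences are RefSeq's (GRCm38.p6), with 6 of the 10 genes matched by symbol, and exon sequences are from GENCODE M21 transcripts. Python 3.11.15, NumPy 2.4.6, SciPy 1.17.1 and Matplotlib 3.10.9 were used.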

Additional observations from a re-analysis of the deposited data

How the results depend on the processing

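No member was called under any other scaling, read minimum, set of classes or with the length trend removed, and with the adjusted p alone the count of members called between the libraries was 1. The counts of members whose leading transcript or first exon differed stayed at 0 under every alternative run. Counting annotated models alone made the leading first exon share of Cyb561 0%, since no annotated transcript begins there, and by construction the Dbh-201 share 100%. The 10 genes then took 5.04 of every 1000 reads, and 4.98 without the genomic class. With annotated models alone the mean level moved beyond the spread for 8 of the 10 genes, Slc18a1 to 0 and Cyb561 to 108.0 CPM. Leaving out a library gave 52.3 to 55.8% for the Cyb561 first exon, 85.7 to 100% for that of Ddc, 61.5 to 65.6% for Dbh-201 and 4.84 to 4.85 per 1000 reads for the set. Genes under 20 reads in sum, Ddc and Slc6a2, are limited by depth. No paired analysis was possible because there is 1 group.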

Other observations

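Receptors for the amines made in the gland were read at low levels, with 1 exception. Of 14 adrenergic and dopamine receptor genes 10 had reads. Adrb3, the beta receptor best known from fat, stood at 149 CPM in replicate 1 and 125 CPM in replicate 2, followed by Adra1d at 26.7 and 30.4 CPM and Adrb1 at 17.0 and 6.09 CPM. Adipocyte markers were higher in replicate 1 as well, at 18277 CPM against 10228 CPM in replicate 2, and their part in the Adrb3 level was not tested. Adra2a, Drd1, Drd3 and Drd5 had 0 reads. Of 10 genes for cholinergic and PACAP input 8 had reads, led by the nicotinic subunit Chrna3 (25.2 ± 5.52 CPM), the PACAP receptor Adcyap1r1 (14.7 ± 1.46 CPM) and Chrnb4 (12.5 ± 3.90 CPM). None of the 2 receptor genes tested (median log2 ratio 0.13, or 0.18 with the length trend removed) or the 2 input genes tested (0.41, or 0.61) was called.

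Reads outside the gene models were few at these loci. An intergenic model on the same strand just past Dbh, reaching 27186896, had 3 reads in each library, and one past Th had 4 and 2. Antisense models within Ddc had 3 reads in replicate 1 and 1 in replicate 2, beside 3 and 7 reads of Ddc itself. Gm9910, on the opposite strand at the distal first exon of Cyb561, had 6 and 2 reads.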
